A study of Mus musculus with 30 samples.

Results

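Keratins other than the wound-induced Krt6a, Krt6b, Krt16 and Krt17 were followed through regrowth of the mouse digit tip. The members are all rows of the gene table whose symbol is Krt followed by a number and at most 1 letter, without those 4 genes, and 46 of 20321 genes qualified. RNA came from the distal phalanx (P3) of hindlimb digit 3 of 30 male C57Bl/6 mice aged 9 to 10 weeks, after removal of at most 33% of the bone. Digits were taken at 0 h, at 3, 6, 12 and 24 h and at 3, 7, 14 and 21 d after amputation, from 6 mice at 7 d and 3 at each other time. All mice were amputated, so digits collected at 0 h are the baseline and no intact digit was included. The wounds were left unsutured. Each library is the tissue of 1 mouse, with skin, nail and bone together.

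Keratins are the intermediate filament proteins of epithelia. A filament is built from pairs of an acidic type I chain and a neutral to basic type II chain, so the genes are used in partner sets that differ between cell layers. In skin, Krt5 and Krt14 are the pair of the proliferating basal layer, and Krt1 and Krt10 replace them as cells move up and cornify. The hard keratins, Krt31 to Krt40 of type I and Krt81 to Krt86 of type II, are rich in cysteine and build the nail plate and the hair shaft, while Krt25 to Krt28 and Krt71 to Krt74 belong to the inner root sheath of hair follicles.

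The expected counts, which RSEM estimates per gene from the mapped reads, summed to between 3167625 and 16277816 per mouse, with a median of 6103688. The precision of low genes is limited by this depth, and a gene with fewer than 3 counts in a mouse was read as not detectable there, a floor that covers counting error only. Dates in the sample titles fall in July to August for 16 libraries (median total 5083528) and in November to January for 14 (median total 9836324). The earlier dates hold every mouse of 3 h and of 12 h, and the later ones every mouse of 21 d. The titles of mouse 3 at 0 h and mouse 2 at 12 h share an animal code, date and foot. Their counts differed far beyond sampling noise (chi-square per gene 23.7), and both were kept. Left feet were used for 3 of the 7 d mice. Markers of the labelled tissue were present in every library. The sum of 19 epidermal genes other than keratins was between 26420 and 50290 CPM (counts scaled to a fixed library size). The sum of 10 bone genes was between 752 and 24460 CPM. Most of the bone sum was Col1a1, with 1544 of 1777 CPM in mouse 1 at 0 h and 20700 of 24460 CPM in mouse 1 at 21 d.

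Of the 46 members, 8 are suprabasal epidermal keratins, 3 basal, 6 simple epithelial, 4 mucosal and corneal, 8 of the inner root sheath and companion layer, 9 hard type I, 5 hard type II and 3 outside these groups (Krt42, Krt79 and Krt222). All 46 reached 3 counts in at least 1 mouse. In the GRCm38 annotation, 25 members lie on chromosome 11 between 99232761 and 100269871 and 21 on chromosome 15 between 101347444 and 102032027. The chromosome 11 cluster holds the type I genes, and the chromosome 15 cluster the type II genes together with the type I gene Krt18 at its end. Krt74 and Krt85 are not analysed here.

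In TPM, a scale that corrects for transcript length and so allows genes to be compared, the 46 members held between 6.33% (7 d, mouse 2) and 14.3% (3 h, mouse 3) of all transcripts, with a median of 8.2%. Suprabasal keratins made up the largest part, with a median of 5.4% and a range from 1.64% to 11.1%. Hard keratins had their lowest share, 0.251%, in mouse 1 at 3 d and their highest, 3.3%, in mouse 1 at 21 d. Basal keratins had a median of 1.04% and a narrower range, from 0.823% to 1.24%. Summed over 22 type II and 27 type I genes, the wound-induced keratins included, the ratio of type II to type I TPM stayed between 0.877 and 1.17 in the 30 mice, with a median of 1.02.

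**Figure D1:**
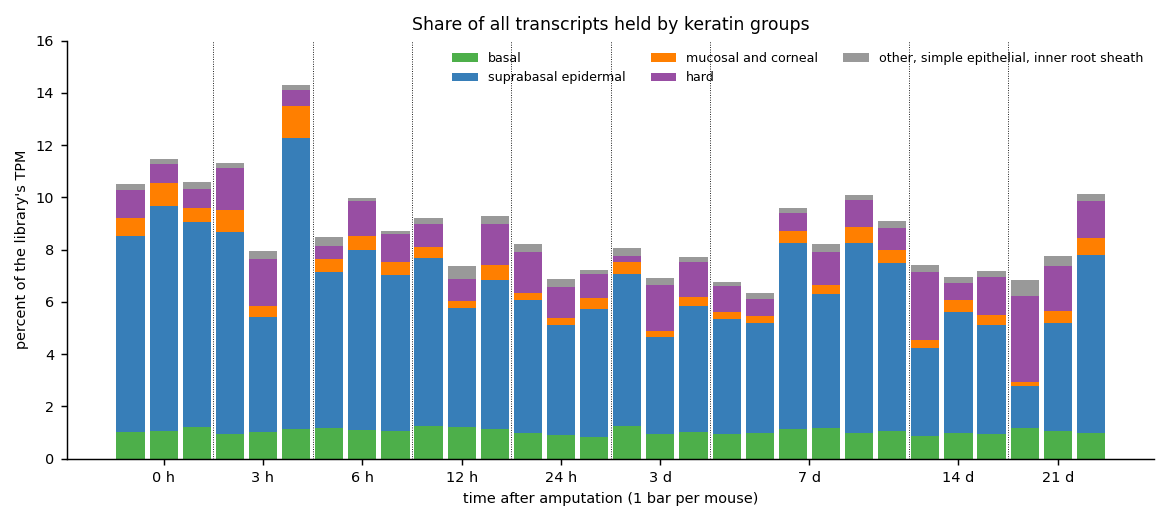
Percent of each library's TPM held by keratin groups, with 1 stacked bar per mouse in order of time after amputation. Suprabasal keratins (blue) are the largest segment of each bar except in mouse 1 at 21 d, where they hold 1.64% and the hard keratins (purple) 3.3%.

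The most abundant members by mean TPM over the 30 mice were Krt10 (19441), Krt2 (16837), Krt1 (15505), Krt14 (7152), Krt24 (4719), Krt9 (3927) and Krt5 (3009). The leading hard keratins were Krt83 (2763), Krt81 (1934) and Krt86 (1604) of type II and Krt33b (1311), Krt36 (1155), Krt34 (1001) and Krt31 (982) of type I. At the low end, 8 members did not pass the filter on low counts and were not tested (Krt13, Krt20, Krt26, Krt28, Krt40, Krt71, Krt72 and Krt76).

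**Figure D2:**
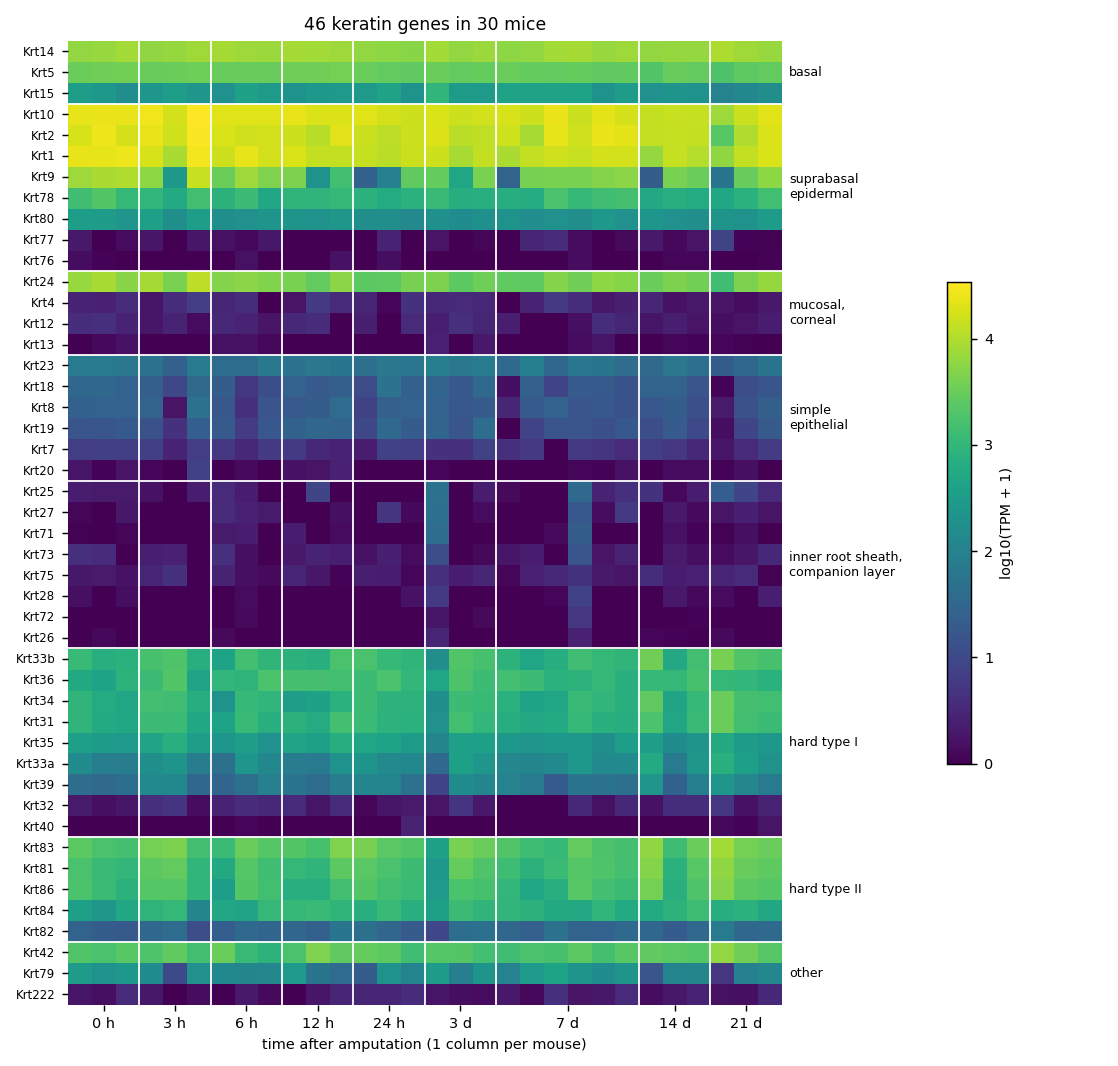
Levels of the 46 keratin genes as log10(TPM + 1), with genes in rows by keratin group and 1 column per mouse in order of time after amputation. Basal rows and most suprabasal rows are high throughout, Krt9 has dark cells and Krt76 and Krt77 are near 0, inner root sheath genes are bright in 2 columns (mouse 1 at 3 d and mouse 4 at 7 d), and hard keratins vary between mice of the same time point.

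Most keratins did not pass a test of change over time. P-values measure the spread between these mice. Over the 9 time points, edgeR's quasi-likelihood F-test with Benjamini-Hochberg adjustment called 2 of 38 members tested, Krt80 (adjusted p = 0.0336) and Krt15 (adjusted p = 0.0476), which is 5.26% of them beside 9.01% of all 13793 genes tested. At an unadjusted p under 0.05 there were 10 members of 38, beside 24.1% of all genes. Against 0 h, edgeR called none of the members at any of the 8 later times, where the shares of all genes called were 0.254% at 3 h, 0.189% at 6 h, 0.167% at 12 h, 0.493% at 24 h, 0.551% at 3 d, 2.34% at 7 d, 1.61% at 14 d and 1.94% at 21 d. At an unadjusted p under 0.05 the members numbered 3, 2, 4, 5, 9, 4, 10 and 16 of 38 at these times, beside 10.9%, 7.24%, 7.67%, 9.41%, 6.66%, 13.3%, 8.91% and 9.22% of all genes. DESeq2 called 1 member, Krt1 at 14 d (beside 342 of all genes), and none at the other 7 times. Between 21 d and 7 d, edgeR called 2 members, Krt42 (higher at 21 d) and Krt15 (lower), beside 1.46% of all genes (0.964% higher, 0.493% lower). DESeq2 called these 2 and also Krt31 and Krt83, beside 412 of all genes.

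The spread between mice of the same time point was wide for keratins. The standard deviation of log2(CPM + 1) within time points had a median of 0.79 over the 38 members tested and of 0.42 over all genes tested. Among genes with a mean of at least 100 CPM it was 0.67 for 22 members and 0.27 for all 1982 genes. The basal pair lay at the other end, with 0.19 for Krt5 and 0.25 for Krt14. The widest was Krt9 with 2.88, followed by Krt25 with 1.53 and Krt79 with 1.48. CPM here include TMM factors, a normalization for RNA composition, and are used below to compare times. In whole digit tips, fewer cells of a type and less RNA per cell cannot be told apart.

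The basal pair had the smallest spread between mice of all members tested. Krt5, the type II keratin of the basal layer, had 3443, 3682 and 3618 CPM at 0 h and 2119, 2757 and 3081 CPM at 21 d. All 3 mice at 21 d were below all 3 at 0 h, and so were all 6 mice at 7 d, which held for 5 members (Krt1, Krt5, Krt7, Krt9 and Krt18) beside 3.44% of all genes. At 21 d this was a log2 fold change of -0.43 (standard error, SE, 0.19) that was not called (adjusted p = 0.446). Krt14, its type I partner, averaged 5599 ± 447 CPM at 0 h and 6805 ± 1467 CPM at 21 d (SD, n = 3 each), where mouse 1 had 8464 CPM, the highest of the 30. The TPM ratio of Krt5 to Krt14 had a median of 0.44 and a range from 0.193 (21 d, mouse 1) to 0.532 (7 d, mouse 1). Krt14 shares 7.86% of its 65-base transcript windows, the read length, with other genes, chiefly Krt16 and Krt17, and Krt5 shares 6.56%, chiefly with Krt6a.

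Krt15, a type I keratin of basal cells known as a marker of the hair follicle bulge, changed over time and was lowest at 21 d. It had 284, 268, 378, 351, 176 and 255 CPM in the 6 mice at 7 d and 88.6, 104 and 145 CPM at 21 d. The mice at 21 d all lay below the mice at 7 d. The log2 fold change was -1.34 (SE 0.35, edgeR adjusted p = 0.0439), and within the later dates, which hold 3 mice at 21 d and 4 at 7 d, the difference of mean log2(CPM + 1) was -1.33. Krt15 was 1 of 38 members with every mouse at 21 d below every mouse at 7 d (2.07% of all genes). At 0 h it had 273, 212 and 123 CPM, and the single highest value, 743 CPM, came from mouse 1 at 3 d, where the other mice had 219 and 193 CPM. Refits that each dropped a single mouse gave values from -1.59 to -1.22, and the call was lost in 9 of 30 refits, among them those without mouse 1 (adjusted p = 0.336) and without mouse 2 (adjusted p = 0.197) at 21 d. Over the 9 time points its adjusted p exceeded 0.05 in 15 of 30 refits, with 0.12 without mouse 1 and 0.109 without mouse 2 at 21 d. The bone marker sum, mostly Col1a1, stood at 4795 to 7414 CPM at 7 d and at 15700 to 24460 CPM at 21 d. Between these times the median log2 change of the 10 bone genes was 1.54. The part of tissue make-up in the Krt15 result was not tested.

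The suprabasal keratins Krt1, Krt2 and Krt10 hold the cornifying layers, and the mean of Krt1 was highest at 0 h and those of Krt2 and Krt10 at 3 h. Krt1 had 28676, 27326 and 28245 CPM at 0 h, 7618, 14359 and 12152 CPM at 14 d, and 7660, 15339 and 23533 CPM at 21 d. All mice at 14 d and 21 d were below all mice at 0 h. The log2 fold change at 14 d was -1.30 (SE 0.42), not called by edgeR (adjusted p = 0.158), and within the dates the difference of mean log2(CPM + 1) was -1.89 (1 mouse against 1) and -1.08 (2 against 2). Krt10, the type I partner of Krt1, had 23357, 25498 and 22474 CPM at 0 h and 13070, 12806 and 13048 CPM at 14 d, a log2 fold change of -0.87 (SE 0.31, adjusted p = 0.25). The 3 mice at 14 d were close to each other and below the 0 h mice.

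Krt2, a type II keratin of the upper spinous and granular layers, averaged 25160 ± 6454 CPM at 0 h and 13760 ± 11410 CPM at 21 d (SD, n = 3 each), where mouse 1 had 3063 CPM, the lowest of all 30. The TPM ratio of Krt1 to Krt10 ran from 0.492 to 1.16 with a median of 0.8. Krt78, a type II epidermal keratin, had 2271, 3480 and 1595 CPM at 0 h and 873, 1041 and 961 CPM at 14 d (log2 fold change -1.35, SE 0.46, adjusted p = 0.195). Among the 7 suprabasal keratins tested, the median log2 change from 0 h was -0.87 at 14 d and -0.66 at 21 d, with 6 of 7 below 0 at both times and none called, beside medians of -0.0039 and -0.0044 over all genes. Without mouse 1 at 21 d the second of these medians was -0.39. The 19 epidermal partner genes that are no keratins had medians of -0.42 and -0.22. The bone marker sum, mostly Col1a1, was 1270 to 3270 CPM at 0 h. It was 17560 to 21090 CPM at 14 d and 15700 to 24460 CPM at 21 d. The median log2 change of the 10 bone genes was smaller than that of the sum, at 1.04 and 0.43, with 4 called as higher at each time. The part of tissue make-up in the keratin medians was not tested.

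Krt80, a type II keratin found in many cornifying epithelia, changed over the time course. It had 284, 259 and 182 CPM at 0 h and 314, 159 and 337 CPM at 3 h. The values were 142, 131 and 154 CPM at 24 h and 155, 124 and 137 CPM at 3 d, below every 0 h mouse at both times. At 21 d they were 202, 183 and 278 CPM, again in the range of 0 h. No single time was called against 0 h, with the lowest adjusted p among these 8 contrasts at 7 d (0.199, log2 fold change -0.55). At 3 d the log2 fold change was -0.80 (SE 0.25, adjusted p = 0.228), and the difference of mean log2(CPM + 1) was -0.48 within the earlier dates and -0.80 within the later ones. In 30 refits without a single mouse each, the adjusted p of Krt80 over time ran from 0.0055 to 0.127 and exceeded 0.05 in 16. The highest was without mouse 3 at 3 h.

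**Figure D3:**
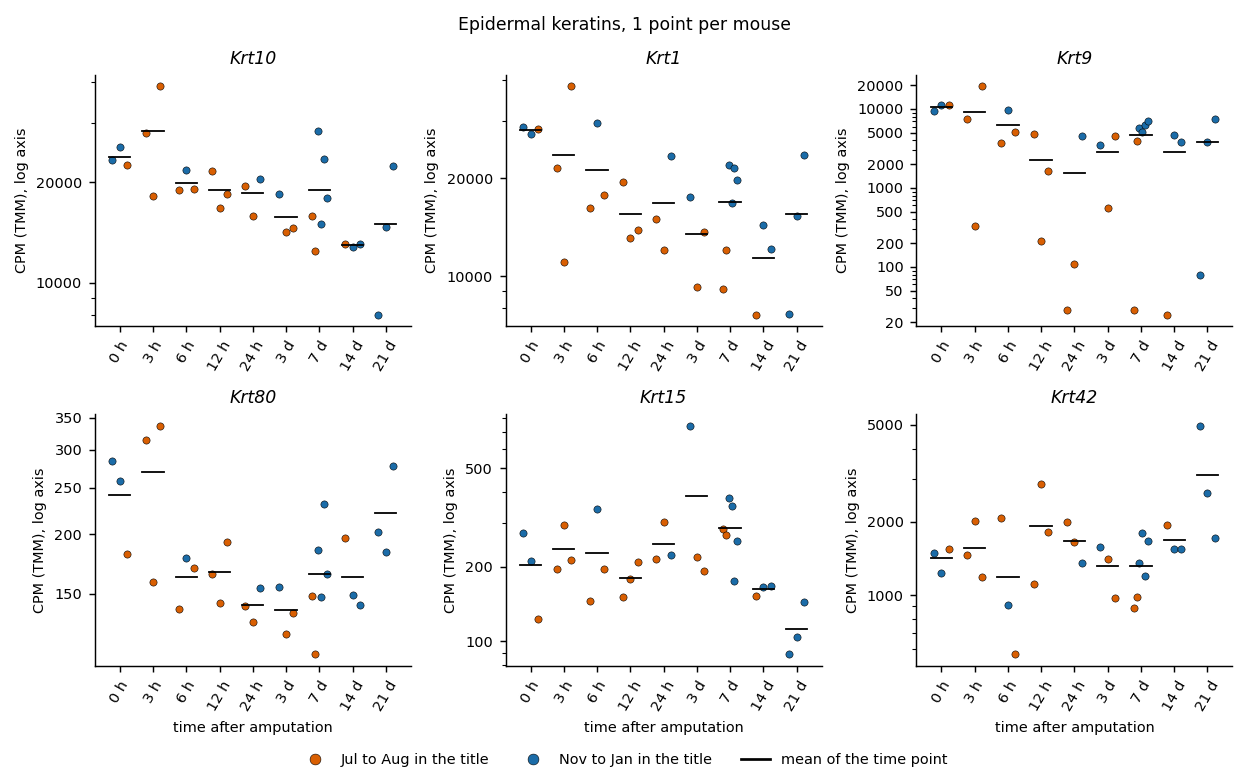
CPM (TMM-scaled, log axis) of 6 epidermal keratins over time after amputation, with 1 point per mouse coloured by the months in the sample title and a bar at the mean of each time point. Krt10 is tightly grouped at 14 d, Krt9 splits into mice at or above 1661 CPM and mice at or below 550 CPM, and the means of Krt15 and Krt42 are at their lowest and highest at 21 d.

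Krt9, the type I keratin of palm and sole epidermis, split the mice into high and low. The 3 mice at 0 h had 9312, 11266 and 11287 CPM. In 8 of the 30 mice it was at or below 550 CPM, at 330 in mouse 2 at 3 h, 215 in mouse 2 at 12 h, 28.5 and 109 in mice 1 and 2 at 24 h, 550 in mouse 2 at 3 d, 28.2 in mouse 1 at 7 d, 24.7 in mouse 1 at 14 d and 77.8 in mouse 1 at 21 d. The highest value was 19570 CPM in mouse 3 at 3 h. The log2 fold change at 24 h, -2.78 (SE 1.61, adjusted p = 0.63), ran from -7.26 to -2.22 when single mice were left out. In the same 8 mice Krt10 ranged from 8026 CPM (21 d, mouse 1, the lowest of all 30) to 19442 CPM (24 h, mouse 1), beside a median of 18410 CPM over the 30 mice. Of the 8 low mice 7 carry the earlier dates, and within the dates the difference of mean log2(CPM + 1) from 0 h to 24 h was -7.63 (2 mice against 1) and -1.18 (1 against 2).

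The simple epithelial keratins Krt7, Krt8, Krt18 and Krt19, typical of glands and Merkel cells, were low in every library. Krt8 had a median of 14.2 CPM and Krt18 of 12.5 CPM. Krt8 was at 0.67 CPM in mouse 2 at 3 h, 5.29 in mouse 1 at 24 h, 1.55 in mouse 1 at 7 d and 1.02 in mouse 1 at 21 d, which had low Krt9, and at 3.14 CPM in mouse 2 at 6 h, which had 9804 CPM of Krt9. The other low Krt9 mice had 15.0 CPM in mouse 2 at 12 h, 18.5 in mouse 2 at 24 h, 12.6 in mouse 2 at 3 d and 13.2 in mouse 1 at 14 d. The sum of 9 eccrine sweat gland markers other than keratins was 911 to 1870 CPM in the 8 low Krt9 mice and 741 to 1742 CPM in the other 22, and its part in the spread of Krt9 was not tested. Krt23 had a median of 40.4 CPM and was lowest, at 17.0 CPM, in mouse 1 at 21 d. Of the 5 simple keratins tested all 5 had a log2 change below 0 at 7 d, 14 d and 21 d, with medians of -0.70, -0.59 and -0.97 and none called. Krt8 shares 24.0% of its 65-base windows with the pseudogene Krt8-ps.

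Krt24, assigned here to the mucosal and corneal group, made up nearly all of that group in this tissue. The suprabasal shares and medians above do not include Krt24. This type I keratin, first described in cornea, had 6127, 7865 and 4430 CPM at 0 h, 2009, 2066 and 4688 CPM at 24 h, and 3702, 1993 and 2605 CPM at 3 d. The mice at 3 d lay below those at 0 h (log2 fold change -1.15, SE 0.47, adjusted p = 0.56). Its range over all mice was 1358 CPM (21 d, mouse 1) to 12073 CPM (3 h, mouse 3). Krt2 and Krt10 were lowest and highest in the same 2 mice. Krt4 and Krt12, of mucosa and cornea, had medians of 1.82 and 1.16 CPM, and Krt13 had counts in 13 of the 30 mice.

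The inner root sheath keratins, which mark growing hair follicles, were low in most mice and highest in 2. Summed over Krt25, Krt26, Krt27, Krt28, Krt71, Krt72 and Krt73, mouse 1 at 3 d had 135 CPM and mouse 4 at 7 d had 91.9 CPM, while the other 28 mice had between 0 and 24.5 CPM with a median of 2.19. Krt71, the type II keratin of the sheath, had 41.9 and 21.6 CPM in these 2 mice and at most 1.42 CPM elsewhere. Krt25 had 44.2 and 32.4 CPM there, and its next highest value was 22.8 CPM (246 counts) in mouse 1 at 21 d. Krt27 had 31.1 and 12.4 CPM there. Trichohyalin (Tchh), a protein of the inner root sheath and medulla that is no keratin, was high in the same mice, at 232 and 198 CPM, and 8.52 to 67.4 CPM in the other 28. Mouse 1 at 3 d also had the lowest hard keratins and the highest Krt15 of the series. Both mice carry the later dates, and mouse 4 at 7 d is labelled left foot. None of the 4 members of the group that were tested was called over time. The fitted log2 change of Krt27 at 3 d, 5.39 (SE 1.98, adjusted p = 0.445), comes from 1 of 3 mice, the other 2 having 0 and 0.24 CPM. Krt75, of the companion layer, stayed at or below 5.71 CPM in all mice.

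**Figure D4:**
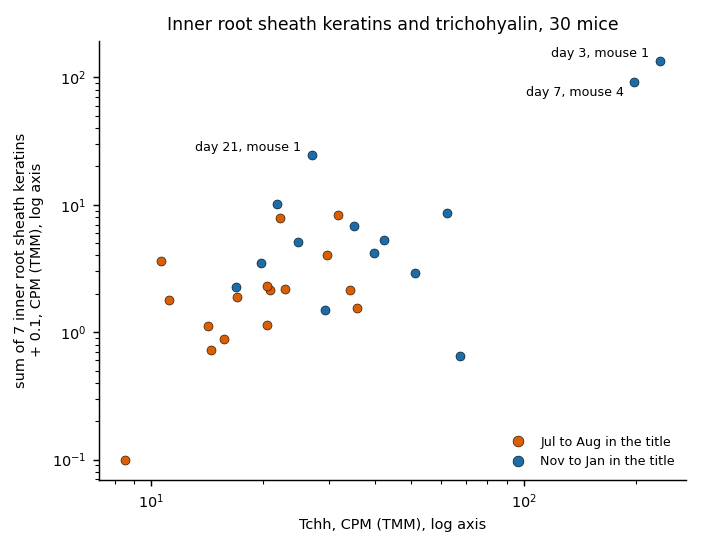
Sum of 7 inner root sheath keratins plus 0.1 against trichohyalin (Tchh), both in TMM-scaled CPM on log axes, with 1 point per mouse coloured by the months in the sample title. Mouse 1 at 3 d and mouse 4 at 7 d stand apart at the upper right, at 135 and 91.9 CPM of keratins.

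Hard keratins were present in every library, and 9 of the 14 had their highest mean at 21 d. Upstream sequences of 5 of them are shown because Krt31, Krt33b and Krt34 varied together across mice and Krt36 and Krt84 followed another course. The 250 bases before the start are from RefSeq (GRCm38.p6), all on the minus strand, and capitals mark TATAAA, the TATA box letters, and CTTTGAA, a core read by Lef1 and Tcf factors, found on either strand.
Krt31 (chr11:100050552-100050801): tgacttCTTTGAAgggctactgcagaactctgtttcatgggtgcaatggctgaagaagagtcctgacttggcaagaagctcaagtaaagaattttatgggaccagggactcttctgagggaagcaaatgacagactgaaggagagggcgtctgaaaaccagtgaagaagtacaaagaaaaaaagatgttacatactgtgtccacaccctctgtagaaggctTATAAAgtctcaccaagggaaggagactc
Krt33b (chr11:100029869-100030118): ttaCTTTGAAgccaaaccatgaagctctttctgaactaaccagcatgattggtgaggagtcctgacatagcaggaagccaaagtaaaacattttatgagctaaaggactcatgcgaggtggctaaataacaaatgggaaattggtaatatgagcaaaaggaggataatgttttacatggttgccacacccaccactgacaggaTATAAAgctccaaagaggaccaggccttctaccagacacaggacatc
Krt34 (chr11:100041555-100041804): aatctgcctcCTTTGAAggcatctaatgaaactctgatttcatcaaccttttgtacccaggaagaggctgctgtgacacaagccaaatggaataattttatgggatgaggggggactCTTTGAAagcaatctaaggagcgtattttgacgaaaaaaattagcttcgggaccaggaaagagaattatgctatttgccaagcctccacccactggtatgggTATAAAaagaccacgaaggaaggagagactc
Krt36 (chr11:100105627-100105876): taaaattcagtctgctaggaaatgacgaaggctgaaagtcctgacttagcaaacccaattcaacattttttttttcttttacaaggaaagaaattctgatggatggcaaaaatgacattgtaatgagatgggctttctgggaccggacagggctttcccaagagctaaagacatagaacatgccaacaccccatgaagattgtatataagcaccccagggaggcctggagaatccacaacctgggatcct
Krt84 (chr15:101532821-101533070): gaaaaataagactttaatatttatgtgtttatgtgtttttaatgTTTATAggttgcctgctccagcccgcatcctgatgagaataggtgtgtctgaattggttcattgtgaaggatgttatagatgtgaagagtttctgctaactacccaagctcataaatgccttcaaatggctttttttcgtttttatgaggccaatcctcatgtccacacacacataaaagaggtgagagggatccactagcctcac
TATAAA stood 29, 47 and 31 bases before the start of Krt31, Krt33b and Krt34, and CTTTGAA 244 and 247 bases before the start of the first 2 and 240 and 133 bases before that of Krt34. Neither was found in Krt36, and in Krt84 only TATAAA, read on the other strand 206 bases before the start. The search took exact letters only. Variants such as tatataag in the Krt36 sequence and cataaaag in that of Krt84 were not counted. The absence of a match is therefore not the absence of a TATA box. Promoters of 35 of the 46 members were matched. CTTTGAA was in 5 of 7 hard type I promoters (Krt31, Krt32, Krt33b, Krt34 and Krt39), in 0 of 2 of hard type II, in 5 of the 35 in all (14.3%), and in 4.64% of 27025 promoters of the same length. TATAAA was in 17 of 35 (48.6%) and in 13.0% of all. TCGTAAA, a core read by Hoxc13, was in 1 of 35, that of Krt40, and in 0.492% of all. These matches are descriptions of letters in the window.

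Among the hard keratins, Krt34, a type I chain of the cortex, had 727, 478 and 335 CPM at 0 h, 309 to 1996 CPM at 14 d, and 2640, 1231 and 1175 CPM at 21 d. Krt86, a type II chain of the cortex, had 1662, 1143 and 714 CPM at 0 h and 5234, 2346 and 2128 CPM at 21 d. Krt31 had 694, 448 and 360 CPM at 0 h and 2593, 1115 and 979 CPM at 21 d, and Krt83, the most abundant hard keratin, 2167, 1514 and 1272 CPM and 7837, 3454 and 2862 CPM. For each of these genes all mice at 21 d were above all mice at 0 h, and mouse 1 at 21 d was highest of the 30.

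Against 0 h at 21 d, all 13 hard keratins tested had a log2 change above 0, with a median of 1.51 (all genes -0.0044). The largest were Krt33a (2.14, SE 0.70, adjusted p = 0.161), Krt39 (1.98, SE 0.71, adjusted p = 0.225) and Krt34 (1.71, SE 0.63, adjusted p = 0.259). None was called, and 9 of the 13 had an unadjusted p under 0.05 (9.22% of all genes). Without mouse 1 at 21 d the median was 0.94, with 12 of 13 above 0. Every mouse at 21 d was above every mouse at 0 h for 13 of the 38 members, 11 of them hard keratins (Krt31, Krt33a, Krt33b, Krt34, Krt36, Krt39, Krt81, Krt82, Krt83, Krt84 and Krt86, with Krt25 and Krt42), beside 12.5% of all genes. In the other direction there were 11 members (Krt1, Krt4, Krt5, Krt7, Krt8, Krt9, Krt10, Krt12, Krt18, Krt23 and Krt79), beside 10.2% of all genes. At 14 d, 12 members lay wholly below 0 h (11.8% of all genes) and 3 wholly above it (13.6% of all genes).

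Between 7 d and 21 d edgeR called no hard keratin, and 12 of 13 had a log2 change above 0 (median 1.51), beside a median of 0.0022 over all genes. In this contrast 9 of the 13 had an unadjusted p under 0.05, beside 1700 of all 13793 genes tested. Hard keratins varied together from mouse to mouse and several share sequence, so these are not 9 separate results. Krt31 had a log2 fold change of 1.57 (SE 0.45, adjusted p = 0.0741) and Krt83 of 1.66 (SE 0.49, adjusted p = 0.0871) with edgeR, and both were called by DESeq2. Without mouse 1 at 21 d these log2 fold changes were 0.97 (adjusted p = 0.743) and 1.06 (adjusted p = 0.748). Krt33b (1.61, adjusted p = 0.129) and Krt34 (1.57, adjusted p = 0.131) came next. Every mouse at 21 d was above every mouse at 7 d for 5 members, Krt31, Krt33b, Krt34, Krt81 and Krt83, beside 4.03% of all genes. Within the later dates (3 mice against 4) the difference of mean log2(CPM + 1) was 1.26 for Krt31, 1.45 for Krt83, 1.27 for Krt33b and 1.32 for Krt34. The 4 wound-induced keratins, summed, had 27870, 12950 and 6835 CPM at 21 d and 2985 to 6248 CPM at 7 d. They were all called at 21 d against 0 h, and none of them without mouse 1.

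The time course of hard keratins differed between the date groups. In the 6 time points that hold both (21 mice), the interaction of time and dates was called for 6 of 38 members, all hard keratins, beside 0.883% of 13587 genes. These were Krt33b (adjusted p = 0.0299), Krt81 (0.0319), Krt35 (0.0334), Krt31 (0.0334), Krt83 (0.0443) and Krt33a (0.0478) in the same edgeR fit, adjusted over all genes. At 3 d the mouse of the later dates had 142 CPM of Krt31 and the mice of the earlier dates 1011 and 659. At 14 d the mouse of the earlier dates had 1307 CPM and the others 336 and 822. At 6 h the mouse of the later dates had 952 CPM and the others 286 and 489. Each of these contrasts rests on a single mouse on one side. Leaving out 1 mouse at a time gave between 0 and 10 members. The count was 0 without any one mouse at 24 h and without mouse 1 or mouse 2 at 3 d. It was 1 without mouse 2 (Krt9) or mouse 6 (Krt35) at 7 d, and 10 without mouse 3 at 7 d. Over all genes, 120 were called with all 21 mice. Without mouse 1, 2 or 3 at 24 h there were 5, 22 and 7. Without mouse 1 or 2 at 3 d there were 126 and 43. Without mouse 2, 6 or 3 at 7 d there were 36, 53 and 447. What the dates stand for is not given in the labels, and dates and mouse cannot be told apart at these times.

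Hard keratins of both types varied together from mouse to mouse. After subtracting the mean of each time point from log2(CPM + 1), Krt34 and Krt86 had Pearson's r = 0.984 and Spearman's rho = 0.98 over 30 mice, although they lie on different chromosomes. Krt36 and Krt84 had r = 0.921 and rho = 0.899. Across these sets Krt34 and Krt36 had r = 0.437 and rho = 0.329. Without the 2 mice farthest from the median of Krt34 r was 0.272, and within the earlier and later dates it was 0.561 (14 mice) and 0.764 (11 mice). These pairs are among 7 chosen after their values were seen, so the coefficients are a description with no test. In the other pairs r was 0.824 for Krt1 with Krt10, 0.831 for Krt8 with Krt18, 0.7 for Krt9 with Krt8 and 0.391 for Krt5 with Krt14. Varying together was therefore not particular to hard keratins. Within the earlier dates (14 mice) and the later ones (11 mice), r was 0.993 and 0.991 for Krt34 with Krt86, and 0.957 and 0.873 for Krt36 with Krt84. The TPM ratio of Krt86 to Krt34 was lowest, 1.14, in mouse 2 at 7 d and had a median of 1.61. Transcripts of neighbouring hard keratins share sequence, with 37.0% of 65-base windows shared in Krt86, 33.0% in Krt81, 27.8% in Krt34, 22.8% in Krt31, 15.8% in Krt33b, 14.9% in Krt83 and 13.0% in Krt33a, so that counts within these sets could be split between copies.

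Krt36 and Krt84 had their lowest mean at 0 h and their highest within the day after amputation, at 24 h and 12 h. Krt36, a type I hard keratin, had 451, 345 and 633 CPM at 0 h, 1104, 1074 and 1086 CPM at 12 h and 941, 1285 and 1063 CPM at 24 h. Krt84, a type II hard keratin of nail and tongue, had 450, 310 and 602 CPM at 0 h, 1168, 1214 and 1046 CPM at 12 h and 786, 1251 and 1146 CPM at 24 h. At both times every mouse was above every 0 h mouse for both genes. At 12 h they were among 3 members of 38 with this order (7.89%, beside 9.82% of all genes). At 24 h they were among 4 (10.5%, beside 8.77% of all genes). The order was thus about as frequent among the members as among all genes. The log2 fold change at 12 h was 1.19 for Krt36 (SE 0.39, adjusted p = 0.388) and 1.33 for Krt84 (SE 0.47, adjusted p = 0.456). All mice at 12 h carry the earlier dates, and at 0 h only mouse 3 does. That mouse had the highest 0 h value of both genes (633 and 602 CPM). At 24 h the adjusted p was 0.243 and 0.361, and neither gene was called at either time. Within the dates the difference of mean log2(CPM + 1) at 24 h was 0.80 (2 mice against 1) and 1.43 (1 against 2) for Krt36, and 0.72 and 1.62 for Krt84. From 7 d to 21 d, where the other hard keratins had a median log2 change of 1.52, Krt36 and Krt84 had 0.0068 and -0.047. Windows of 65 bases shared with other genes were 0 for both.

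**Figure D5:**
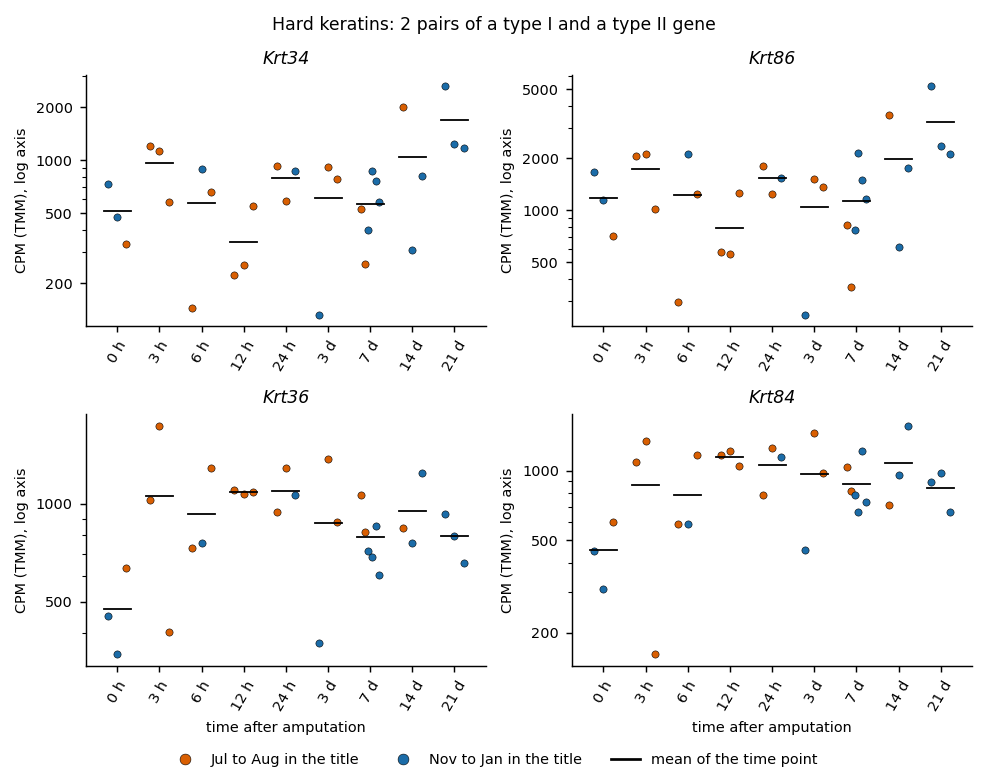
CPM (TMM-scaled, log axis) of Krt34, Krt86, Krt36 and Krt84 over time after amputation, with 1 point per mouse coloured by the months in the sample title and a bar at the mean of each time point. For each gene the mice at 21 d are above all mice at 0 h. Krt34 and Krt86 share their pattern, with their highest mean at 21 d. Krt36 and Krt84 have their lowest mean at 0 h and all mice at 12 h above all mice at 0 h. The order at 12 h was found in 9.82% of all genes tested.

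Among the remaining hard keratins, Krt35, which opens the programme in the hair matrix, ranged from 93.5 CPM (3 d, mouse 1) to 611 CPM (3 h, mouse 2), and its mean was highest at 3 h and lowest at 14 d. Krt33a ranged from 26.6 to 650 CPM, Krt33b from 127 to 3283 CPM, Krt81 from 219 to 5872 CPM, Krt39 from 4.82 to 176 CPM and Krt82 from 8.06 to 82.6 CPM, each lowest in mouse 1 at 3 d and highest in mouse 1 at 21 d. Krt32 did not exceed 3.70 CPM. Krt40 held 14 counts over all 30 mice.

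Krt42 was the only member called as higher in a contrast with edgeR. This type I gene close to Krt14 and Krt17 is described in nail. It had 888, 981, 1357, 1800, 1200 and 1670 CPM at 7 d and 4972, 2636 and 1717 CPM at 21 d. The groups overlapped, mouse 3 at 21 d lying below mouse 4 at 7 d. The log2 fold change was 1.24 (SE 0.32, edgeR adjusted p = 0.0466), and 0.92 as the difference of mean log2(CPM + 1) within the later dates. The call was lost in 24 of 30 refits with 1 mouse left out. Without mouse 1 at 21 d the log2 fold change was 0.70 (adjusted p = 0.725). At 0 h it had 1491, 1238 and 1555 CPM, below all mice at 21 d (adjusted p = 0.207).

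Krt79, a type II keratin of the hair follicle opening and sebaceous duct, ranged from 4.63 CPM (21 d, mouse 1) to 480 CPM (7 d, mouse 3). It had 312, 207 and 243 CPM at 0 h and 14.7, 101 and 115 CPM at 14 d (log2 fold change -1.72, SE 0.93, adjusted p = 0.645). The sum of 8 sebaceous markers, mostly Scd1 and Plin2, ranged from 144 to 979 CPM. It was 144 CPM in the mouse with the lowest Krt79 and 768 CPM in the one with the highest. The highest sum, 979 CPM, came from mouse 2 at 24 h, which had 190 CPM of Krt79. Mouse 1 at 14 d, with 14.7 CPM of Krt79, had a sum of 282.5 CPM. The part of these cells in the spread of Krt79 was not tested. Krt222, a keratin-related gene, did not exceed 5.54 CPM.

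The lists of other genes are read against the shares of all genes called, 9.01% over time and 0.964% as higher at 21 d than at 7 d. Of 19 epidermal partner genes tested (desmosome, cornified envelope and regulators), 2 changed over time, Grhl3, a transcription factor of barrier formation (adjusted p = 0.022, 41.4 to 110 CPM), and Jup, the desmosome protein plakoglobin (adjusted p = 0.0265, 402 to 992 CPM), and Pkp1 came next (adjusted p = 0.0598). Of 14 genes of nail and hair matrix none changed with edgeR, the lowest adjusted p being those of Psors1c2 (0.0541), Msx2 (0.116) and Vdr (0.159). Their median log2 change from 0 h to 21 d was 0.34, beside 1.51 for the hard keratins, and 1 of the 14 was called as higher at 21 d than at 7 d. None of 8 eccrine gland genes (lowest Kcnn4, 0.142) or 3 Merkel cell genes (lowest Piezo2, 0.108) changed, and 1 of 8 sebaceous genes did (Mgst1, adjusted p = 0.0427). By contrast 7 of 10 bone genes changed, led by Col1a1 (adjusted p = 3.79e-10), and 5 of 9 myeloid genes, led by S100a9 (adjusted p = 7.72e-06).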

How the data were processed

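Digit tip RNA of 30 mice was sequenced in 65-base reads. The authors called bases with CASAVA 1.8.2, mapped reads with Bowtie 0.12.8 to Ensembl v75 transcripts and quantified genes with RSEM 1.2.3 (per the labels and the study's methods). The deposited expected counts are RSEM estimates per gene, not normalized. The deposited TPM values were scaled by the authors to transcript length and library. The authors' table of averages per time was not used. RSEM divides reads between near-identical transcripts, so levels of keratins that share sequence are less certain.

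Expected counts were rounded to whole numbers and tested with edgeR 4.0.16 (R 4.3.3, limma 3.58.1): TMM factors, filterByExpr by time, a quasi-likelihood fit of all 30 mice without covariates, an F-test over 9 time points and contrasts with 0 h and between 21 d and 7 d. Of 20321 genes 13793 were tested, with 99.95% of counts, 38 of them members. Adjusted p is Benjamini-Hochberg over all genes tested, with a threshold of 0.05. Date groups were compared by an interaction over 6 time points and 21 mice. Scripts were tested on simulated data. Alternatives were DESeq2 1.42.0, DESeq2 size factors, no TMM, no low-count filter, dates as a covariate, fits without left-foot mice, fits of the compared times alone, and leaving out each mouse. Leaving out the mice with a shared title code, leave-one-out of the interaction and of group medians, and the 7 gene pairs were added after seeing the data. Other values were computed in Python 3.11.15 (numpy 2.4.6, scipy 1.17.1, pandas 2.3.3), and figures used matplotlib 3.10.9.

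Promoters came from RefSeq on GRCm38.p6, positions and shared 65-base windows from the GRCm38 annotation. Members, groups and marker lists were chosen with earlier results of these data known. Named with values were up to 6 members per group by mean TPM, every member called and the hard keratins; of other lists, the 3 genes with the lowest adjusted p. Further genes were named after their values were seen.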

Additional observations from a re-analysis of the deposited data

Results flagged for a closer look

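At 7 d, the only time point with 6 mice, 4 of the 38 members tested had 1 mouse whose gap to its neighbour was large for the range of the group. The gap over the range was 0.902 for Krt25, 0.869 for Krt73 and 0.719 for Krt27, each with mouse 4 highest, and 0.642 for Krt79, with mouse 3 highest. For values with a normal spread, the limit for 6 mice would be passed in about 1 of 20 genes, or 1.9 of 38. This rate does not apply to skewed genes with values at 0, such as Krt25 (0 to 32.4 CPM at 7 d) and Krt27 (0 to 12.4 CPM). The share of all genes that pass the limit is not given here, so the number flagged has no comparison. The 3 inner root sheath genes come from the same mouse, so they are not separate events.

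The time course differed between the date groups for 6 hard keratins, by the interaction in edgeR's quasi-likelihood test. The adjusted p was 0.0299 for Krt33b, 0.0319 for Krt81, 0.0334 for Krt35, 0.0334 for Krt31, 0.0443 for Krt83 and 0.0478 for Krt33a. In 5 of the 6 time points used, 1 of the date groups holds a single mouse.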

How the results depend on the processing

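Calls on keratins were few and moved with the processing. For the change over 9 time points, edgeR called 2 members beside 1243 of all genes, and DESeq2 5 beside 2496. The fit with dates as a covariate called 6 and the fit without the 2 mice that share a title code 1. Between 21 d and 7 d, edgeR called 2 beside 201 of all genes, and DESeq2 4 beside 412. The date covariate gave 5. DESeq2 size factors, no TMM, no left-foot mice, the 2 times alone and no mice with a shared code each gave 1. Against 0 h, edgeR called 0. The fit of the 2 times alone called 2 at 12 h, 4 at 14 d and 6 at 21 d. The date covariate called 2 at 14 d and 1 at 21 d, and DESeq2 1 at 14 d, beside 342 of all genes. The counts over all genes for the other alternatives are not given here, so those member counts have no share beside them. Over time, leaving out each mouse gave 0 to 3 members (17 of 30 refits differed). Between 21 d and 7 d it gave 0 to 3 (24 of 30), and against 0 h it gave 0 at every time. For the interaction with dates it gave 0 to 10 members (13 of 21 differed), beside 5 to 447 of all genes. The basal keratins' log2 ratio of the mean at 12 h over that at 24 h was 0.3955 in TPM and 0.1551 in CPM. The cause of these changes was not tested.

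The fold changes of Krt15 and Krt42 and the 10 further fold changes recomputed under each alternative kept their direction. Krt36 and Krt84 between 21 d and 7 d lie so near 0 that their sign is not stable, with Krt84 at 0.0163 within the later dates and 11 in place of 12 of 13 hard keratins above 0 without mouse 1 at 3 d, 14 d or 21 d. Over time, the adjusted p with single mice left out ran from 0.0055 to 0.127 for Krt80 and from 0.0138 to 0.12 for Krt15. Total-library scaling moved the median of all genes by 0.14 at 12 h and 0.111 at 3 d against 0 h and by -0.118 between 21 d and 7 d (log2). No paired analysis was possible because each mouse gave 1 library and the labels give no replicate numbers shared across time points. Depth limits the members at a few counts, such as Krt40.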
